A study of Mus musculus with 155 samples.

Results

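OligNBL is the name the study gave to cells sorted from demyelinated mouse brain for carrying both of its fluorescent reporters. NBL is its name for cells sorted for the green reporter alone, from demyelinated brain of mice of another strain. The members were taken by the population name in the labels, which gave 40 OligNBL cells and 27 NBL cells, or 67 of the 155 cells measured. Each cell was a sample of its own, whose polyadenylated RNA was sequenced with SMART-Seq2, which copies whole transcripts from a single cell. The other cells were 37 NB, the green-reporter cells of uninjected mice, 29 O, the Olig2-reporter cells of uninjected mice, and 22 OL, the Olig2-reporter cells of demyelinated mice.

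All cells came from the sub-ventricular zone and corpus callosum of mice aged 8 to 10 weeks, with 5 mice per condition and no mouse named for any cell. The NBL, OligNBL and OL cells were taken 6 days after an injection of LPC, lysophosphatidylcholine, which strips myelin locally. NBL cells came from the strain CB6-Tg(Gad1-EGFP)G42Zjh/J, in which the promoter of Gad1 (encoding Gad67, the enzyme that makes GABA) drives EGFP. OligNBL cells came from a cross of that strain with Olig2-tdTomato TH39Gsat/Mmcd, in which the promoter of Olig2, the transcription factor of the oligodendrocyte lineage, drives tdTomato. The strain therefore differed together with the gate, and the 2 cannot be told apart. Because no mouse is named, each population was counted as 1 sample, and all values below are descriptions of these cells with no test.

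Neuroblasts of the sub-ventricular zone are young neurons that still migrate, normally toward the olfactory bulb, where they become inhibitory interneurons. They carry Dcx, a microtubule-binding protein of migrating neurons, and Tubb3, the neuronal beta-tubulin. Oligodendrocyte progenitors are a separate lineage, marked by Cspg4 (the NG2 proteoglycan), Pdgfra (the receptor for the growth factor PDGF-A) and Ptprz1 (a receptor tyrosine phosphatase), and they give rise to the cells that form myelin. The series asks, by its title, whether neuroblasts become oligodendrocytes after demyelination, and the double-reporter cells are the population in which both lineage reporters were lit.

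A value for a gene in a cell is given below as its level, log2(value + 1). The level of a population is the mean over its cells with the SD between cells. The deposited values had been brought to nearly the same distribution in every cell, so that about 110 genes of each cell had a level of 10 or more, called high here, and sequencing depth could not be read. OligNBL cells had a median of 1397 genes above 0 and NBL cells 1161, but with values of at least 1 the medians were 1136 and 1126.

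Before the comparison, the reporter transcripts were read in every population. EGFP had a value of at least 1 in 32 of 40 OligNBL cells (80%, exact 95% interval 64.4% to 90.9%), in 19 of 27 NBL cells (70.4%, 49.8% to 86.2%) and in 33 of 37 NB cells. In the O and OL cells, sorted for the other reporter, it had such a value in 5 of 29 and 2 of 22. The intervals cover counting error only. EGFP thus followed the sort in all populations.

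The TdTomato transcript went against the labels. It had a value of at least 1 in 2 of 40 OligNBL cells (5.0%, 0.611% to 16.9%) and in 11 of 27 NBL cells (40.7%, 22.4% to 61.2%), although the NBL strain carries no Tomato reporter by its label. It was no better seen in the cells sorted on it, with 3 of 22 OL and 3 of 29 O cells. Olig1, the partner gene of Olig2, had a value of at least 1 in 5 OligNBL cells and 8 NBL cells. Of the 11 NBL cells with TdTomato, 7 also had Olig1, against 1 of the other 16, and their mean Pdgfra level was 5.52 against 0.85 in the others. Sox10, a transcription factor of all oligodendrocyte stages, had a mean level of 1.09 in those cells and 0.13 in the others. Leaving out the 11 cells, a choice made after their values were seen, gave 425 genes higher and 329 lower in OligNBL in place of the counts given below. The titles of OligNBL cells also carry a mark for control, whereas the lesion label and the protocol place them in demyelinated mice.

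Each title names its cell CRBT and a number, and cells with neighbouring numbers were alike. The mean correlation of levels between OligNBL cells was 0.49 where their numbers were at most 4 apart and 0.24 where they were at least 17 apart, and 0.56 and 0.19 between NBL cells. What the number stands for is not stated. The cells were therefore cut into number blocks, 4 for OligNBL (cells CRBT10 to CRBT16, CRBT101 to CRBT113, CRBT114 to CRBT130 and CRBT131 to CRBT142, with 4, 12, 12 and 12 cells) and 3 for NBL (CRBT57 to CRBT65, CRBT66 to CRBT75 and CRBT76 to CRBT84, with 9 cells each). No number was shared between the populations, so that block and population cannot be told apart. A gene was said to have its blocks apart where every OligNBL block mean lay on the same side of every NBL block mean.

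Of the 3 marker genes given for the double-reporter population, the 2 progenitor genes were at or near 0 in most NBL cells, and Tubb3 was found in both populations. Cspg4 (chr9:56865033-56899870 on GRCm38, GENCODE annotation, plus strand) ran from 0 through a median of 2.06 to 19.50 in OligNBL cells and from 0 through 0 to 2.72 in NBL cells. It was high in 6 OligNBL cells, which were cells CRBT113, CRBT112, CRBT10, CRBT11, CRBT130 and CRBT141, with levels of 19.50, 18.54, 15.47, 15.24, 14.87 and 10.56, and in no NBL cell. The population levels were 4.08 ± 5.44 (SD between cells, n = 40) and 0.11 ± 0.52 (n = 27), a difference of 3.97 with blocks apart, or 2.41 with a pseudocount of 10 in place of 1. The SD of OligNBL exceeded its mean, so a few cells carried the level and the lower OligNBL cells overlapped the NBL cells. The other Olig2-reporter populations had Cspg4 levels of 1.62 in O and 0.10 in OL.

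Ptprz1 (chr6:22875502-23052916, plus strand) ran from 0 through 3.23 to 20.19 in OligNBL and from 0 through 0 to 5.72 in NBL. Its levels were 3.52 ± 3.92 and 0.45 ± 1.34, a difference of 3.06 that was 1.52 with a pseudocount of 10. The OligNBL cells CRBT10 to CRBT16 had a mean of 0.33, inside the NBL range of block means, so its blocks were not apart. It was high in 2 cells, CRBT105 at 20.19 and CRBT141 at 13.90, and cell CRBT141 was the only OligNBL cell with both Cspg4 and Ptprz1 high.

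Tubb3 (chr8:123411424-123422015, plus strand) ran from 0 through 9.91 to 16.42 in OligNBL and from 0 through 4.91 to 16.20 in NBL. It was high in 20 of 40 and 7 of 27 cells, and the ranges overlapped over nearly their whole length. The levels were 8.81 ± 4.07 and 5.57 ± 4.72. The NBL cells split by number, with block means of 2.20, 3.68 and 10.82, and all 7 high cells lay among CRBT78 to CRBT84. The difference of 3.24 was 1.56 without the NBL cells CRBT57 to CRBT65 and 5.87 without CRBT76 to CRBT84. NB, OL and O had Tubb3 levels of 1.56, 1.49 and 1.50.

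**Figure D1:**
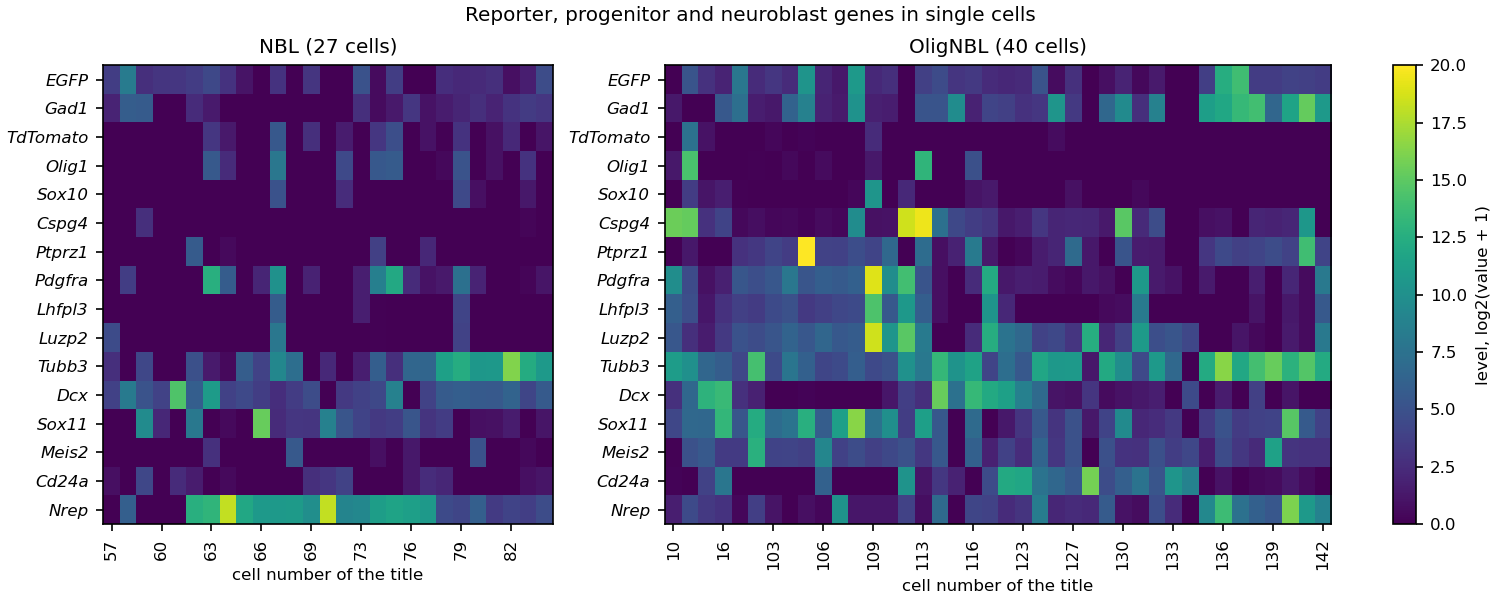
Level, log2(value + 1), of 16 reporter, progenitor and neuroblast genes (rows) in each of 27 NBL cells and 40 OligNBL cells (columns, in the order of the cell number in the title); brighter is higher. Cspg4 is dark in NBL cells, where its highest level is 2.72, and bright in 6 OligNBL cells, while Tubb3 is bright in 20 OligNBL cells and in 7 NBL cells at the right end of their panel.

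The progenitor markers and Tubb3 were then looked for in the same cell. A gene was called present where it was among the 500 highest of the cell, which meant a level of about 3.56 or more. Cspg4 was present in 12 of 40 OligNBL cells (30%, 16.6% to 46.5%) and 0 of 27 NBL cells (0%, exact upper limit 12.8%). Tubb3 with Cspg4 or Ptprz1 was present in 25 of 40 OligNBL cells (62.5%, 45.8% to 77.3%) and in 2 of 27 NBL cells (7.41%, 0.910% to 24.3%). Tubb3 was present in 38 of 40 OligNBL cells (95%), so few cells could have had Cspg4 or Ptprz1 without it, and none did. In O cells, where Tubb3 was present in 6 of 29, 4 had the pair and 5 had a progenitor marker without Tubb3.

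The share depended on the level asked for. With both at a high level, a bar chosen after the values were seen, the pair was found in 4 of 40 OligNBL cells (10.0%, 2.79% to 23.7%) and in no NBL cell, while Tubb3 was high without either progenitor gene in 16 OligNBL cells and a progenitor gene was high without Tubb3 in 3. Among the 500 highest genes, at least 1 of the 15 measured progenitor list genes was present in all 40 OligNBL and all 27 NBL cells. The same held for the neuroblast list, so that bar did not separate the populations. At the high level, at least 1 of the 15 progenitor genes was found in 22 of 40 OligNBL cells (55%) and in 4 of 27 NBL cells (14.8%). For Cspg4, Ptprz1, Pdgfra, Lhfpl3 and Luzp2 alone, at least 1 was high in 12 of 40 and 3 of 27 cells. At least 1 of the 36 measured neuroblast genes, Gad1 left out, was high in 39 OligNBL cells and in all 27 NBL cells. The 4 OligNBL cells with the most high progenitor genes were different from each other in this respect. Cell CRBT109 had 4 high progenitor genes and 0 high neuroblast genes, cell CRBT112 had 4 of each, cell CRBT119 had 3 and 2, and cell CRBT141 had 3 and 5.

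**Figure D2:**
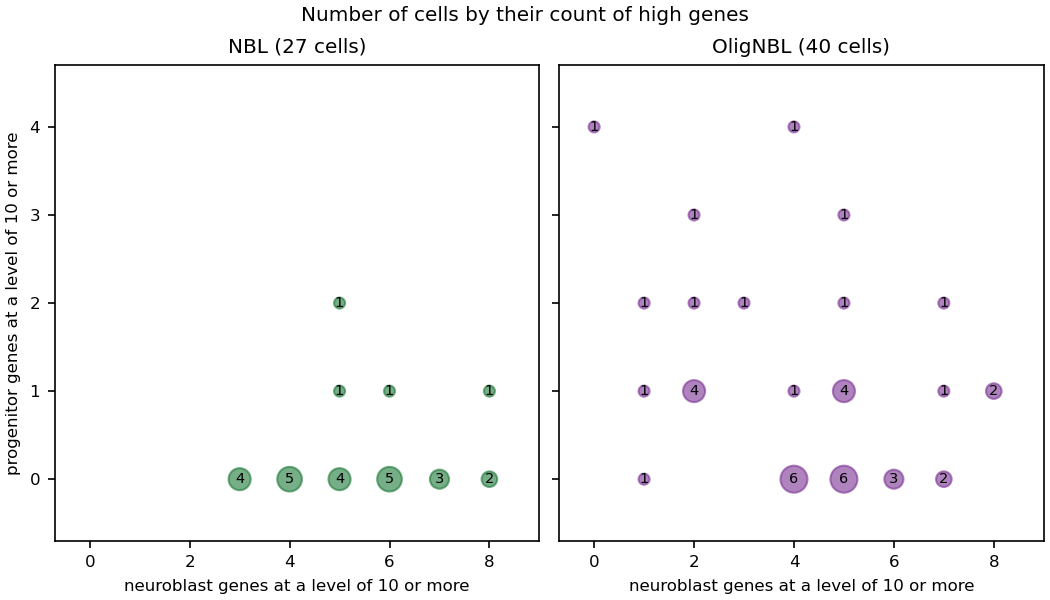
Number of neuroblast genes (x axis, of 36) and of oligodendrocyte progenitor genes (y axis, of 15) at a level of 10 or more in each cell of NBL (left) and OligNBL (right); the area of a point and the number in it give the count of cells at that place. Of the NBL cells, 23 lie on the bottom line with 0 progenitor genes and all have 3 or more neuroblast genes, whereas 22 OligNBL cells lie above that line.

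A low level in 1 cell often went with a high level in a cell of a neighbouring number. Ptprz1 stood at 20.19 in cell CRBT105 and at 2.85, 3.27, 4.11 and 3.54 in cells CRBT101 to CRBT104, with 3.95, 3.84, 4.72 and 4.13 in cells CRBT106 to CRBT109. This was measured over all genes that were high in exactly 1 cell of a block, a measure chosen after the pattern was seen. In the OligNBL block CRBT101 to CRBT113 there were 675 such genes, and the other cells of the block had a value above 0 in 82% of cases, against 45.2% in OligNBL cells outside the block. The same shares were 68.2% and 53.9% in cells CRBT131 to CRBT142, 65.9% and 60.2% in cells CRBT114 to CRBT130, and 82.9% and 63% in cells CRBT10 to CRBT16. In NBL they were 55.2% and 54.2%, 73.1% and 54.8%, and 66.2% and 44.6% in the order of the blocks. The median level of such a gene in the other cells of its block was 2.25 in cells CRBT101 to CRBT113. These shares also count values below 1. Cells CRBT101 to CRBT113 had a median of 1586 genes above 0, whereas no OligNBL cell had more than 1237 genes with a value of at least 1. In cell CRBT105, for example, Cspg4, Dcx, Scg5 and TdTomato all had the same level of 0.19. What share of the low co-presence the neighbour pattern accounts for was not tested.

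Of the 15 progenitor list genes tested, 5 were higher in OligNBL by at least 2 (33.3%) and 0 lower. Cspg4 and Ptprz1, among the 5, were markers given beforehand for the double-reporter population, so the share is not independent of that choice. Over all 2915 genes tested, 14.3% were higher by that much and 12.1% lower. The list's median difference was 0.11 against 0.15 for all genes, so the excess lay in the 5 members and not in the list as a whole. Luzp2, a leucine zipper protein of progenitors, ran from 0 through 4.74 to 18.54 in OligNBL and from 0 through 0 to 7.93 in NBL, and was high in 6 and 0 cells. Its levels were 5.14 ± 4.32 and 0.61 ± 1.85, a difference of 4.53 with blocks apart. Nnat, a small endoplasmic reticulum protein of developing brain, differed by 3.47 with blocks apart. Lhfpl3, a tetraspan membrane protein, ran from 0 through 1.27 to 14.42 against 0 through 0 to 5.83. Its difference of 2.45 had its blocks apart and was 1.22 without the OligNBL cells CRBT101 to CRBT113. With a pseudocount of 10 Cspg4, Luzp2 and Nnat still differed by over 2, and Ptprz1 and Lhfpl3 did not, at 1.52 and 1.24.

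Pdgfra did not separate the populations. It ran from 0 through 1.74 to 18.99 in OligNBL and from 0 through 1.15 to 12.59 in NBL, and was high in 4 and 3 cells, so the groups overlapped. Its levels were 4.05 ± 4.48 and 2.75 ± 3.94, a difference of 1.30. The difference was 3.20 without the 11 NBL cells that had TdTomato, and -0.34 without the OligNBL cells CRBT101 to CRBT113. Sox10 and Olig1 differed by 0.06 and -0.62, and Olig1 was high in 2 OligNBL cells, CRBT11 at 14.26 and CRBT113 at 13.05, and in no NBL cell.

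Within OligNBL, the progenitor genes did not all lie in the same cells. Across the 40 cells the level of Pdgfra had a Pearson correlation of 0.97 with Lhfpl3 and 0.82 with Luzp2, but of 0.16 with Cspg4, 0.01 with Ptprz1 and -0.35 with Tubb3. Cell CRBT109 held the highest levels of Pdgfra, Lhfpl3 and Luzp2, at 18.99, 14.42 and 18.54, followed by cell CRBT112 with 13.96, 10.65 and 14.87 and cell CRBT119 with 12.25, 10.32 and 12.49. The genes most like Pdgfra were Rnf167 at 0.99, Mob2 at 0.98, and Ttc33 and Usp5 at 0.97, and 27 of 2523 genes reached 0.9. Those most like Cspg4 were Gatm at 0.98 and Dnajc12 and Psme4 at 0.97. Of all genes compared, 38.8% had at least 1 partner at 0.9, and the cells share their number blocks, so these values describe which cells were high and nothing more. The nearest genes to Tubb3 and Ptprz1 stood lower, with Atp5g1 at 0.72 and Mcoln1 at 0.79.

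The promoters of Pdgfra, Lhfpl3 and Luzp2 are shown with each CANNTG in capitals. The highest levels of these progenitor genes lay in the same OligNBL cells, CRBT109, CRBT112 and CRBT119. CANNTG is the E-box that basic helix-loop-helix factors such as Olig2 and Tcf4 can bind, and it reads the same on both strands. Each window holds 250 bases before to 50 after the RefSeq start, on GRCm38.p6. The windows lie at chr5:75152001-75152300, chr5:22745804-22746103 and chr7:54834995-54835294, all on the plus strand.
Pdgfra: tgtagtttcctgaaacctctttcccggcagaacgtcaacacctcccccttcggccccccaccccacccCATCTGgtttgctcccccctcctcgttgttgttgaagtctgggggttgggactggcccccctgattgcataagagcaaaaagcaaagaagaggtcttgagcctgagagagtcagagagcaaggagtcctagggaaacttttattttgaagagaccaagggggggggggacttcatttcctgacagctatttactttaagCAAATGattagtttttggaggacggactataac
Lhfpl3: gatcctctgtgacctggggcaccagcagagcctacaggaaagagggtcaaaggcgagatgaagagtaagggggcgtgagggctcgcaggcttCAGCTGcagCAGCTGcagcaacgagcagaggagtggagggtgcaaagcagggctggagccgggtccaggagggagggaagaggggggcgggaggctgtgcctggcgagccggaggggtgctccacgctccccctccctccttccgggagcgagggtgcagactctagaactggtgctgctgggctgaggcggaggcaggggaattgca
Luzp2: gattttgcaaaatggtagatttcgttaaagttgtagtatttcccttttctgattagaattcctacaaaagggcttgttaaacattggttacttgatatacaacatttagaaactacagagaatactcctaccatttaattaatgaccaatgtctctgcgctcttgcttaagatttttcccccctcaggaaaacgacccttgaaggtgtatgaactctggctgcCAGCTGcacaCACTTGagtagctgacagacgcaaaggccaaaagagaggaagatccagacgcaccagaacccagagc
Each window held 2 matches. Of the 32851 promoters of that length in the table, 72.3% held at least 1 and the median was 1, so a match was common. A match is a description of the letters and not of binding or of shared control of these genes.

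The neuroblast genes pointed both ways. Of the 36 tested, 11 were higher in OligNBL (30.6%) and 9 lower (25%), with a median difference of -0.06. The higher members with blocks apart included Meis2, a homeobox factor of the lateral ganglionic lineage, at 4.15 ± 2.52 against 0.59 ± 1.48, and Cd24a, a surface protein of neuroblasts, at 3.65 ± 4.33 against 1.01 ± 1.35. Meis2 ran from 0 through 3.81 to 12.71 in OligNBL and from 0 through 0 to 5.56 in NBL. Its difference was 3.56. The differences of Meis2, Cd24a and Sox11 were 1.53, 1.85 and 1.84 with a pseudocount of 10. The Cd24a difference of 2.63 was 1.33 without the OligNBL cells CRBT114 to CRBT130. Gad1, whose promoter drives the green reporter of both gates, was high in 9 OligNBL cells and no NBL cell, and its difference of 3.90 was 2.48 without the cells CRBT131 to CRBT142, which held 7 of the 9. Sox11, a factor of immature neurons, differed by 2.81 with blocks that overlapped, and by 1.42 without the cells CRBT101 to CRBT113.

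Dcx ran from 0 through 1.38 to 15.35 in OligNBL and from 0 through 4.43 to 14.52 in NBL. It was present in 13 of 40 OligNBL cells (32.5%, 18.6% to 49.1%) and 23 of 27 NBL cells (85.2%, 66.3% to 95.8%), the opposite order to Tubb3, which was present in 38 of 40 (95%) and 16 of 27 (59.3%). Dcx and Tubb3 were present together in 12 OligNBL and 14 NBL cells. In OligNBL the Dcx block means were 9.0, 1.04, 6.84 and 1.16, and in NBL 6.77, 3.86 and 4.78, so the mean difference of -1.53 had no separation of blocks. Sp8 and Stmn2, further neuroblast genes, had levels of 0.60 and 0.50 in OligNBL and 1.74 and 0.76 in NBL, but 7.63 and 5.17 in NB.

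Among the lower neuroblast genes was Ccnd2. It encodes the cyclin that drives entry into the cell cycle in neural progenitors (chr6:127125162-127152193, minus strand), and its level ran from 0 through 4.97 to 14.08 in OligNBL and from 2.77 through 11.68 to 18.14 in NBL. High levels were found in 8 of 40 and 21 of 27 cells. The levels were 6.23 ± 3.82 and 11 ± 3.60, a difference of -4.77. Cells CRBT76 to CRBT84 of NBL, with a mean of 7.56, overlapped the OligNBL blocks. NB cells had a Ccnd2 level of 11.84, close to NBL, and OL and O had 3.31 and 4.05.

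Stmn1, a microtubule destabiliser of growing cells, was 1.18 ± 1.77 against 6.24 ± 5.06 with blocks apart, a difference of -5.06 that was -2.28 without the NBL cells CRBT57 to CRBT65 and -3.26 in cells with at least 1000 genes above 0. It was high in 5 NBL cells and no OligNBL cell, and NB had 9.12. Etv1, a transcription factor of olfactory interneurons, was 0.48 ± 1.22 against 6.79 ± 5.30 with blocks apart, a difference of -6.31 that was -3.64 without the NBL cells CRBT66 to CRBT75. NB cells had 0.31, so for Etv1 the NBL cells stood apart from both. Celf3, an RNA-binding splicing regulator of neurons, was 3.38 ± 3.14 against 8.96 ± 4.78 with overlapping blocks. Its difference of -5.58 was -3.46 without cells CRBT66 to CRBT75. NB cells had a Celf3 level of 0.69, so OligNBL lay between NB and NBL. Nrep, a small protein of migrating neurons, was high in 12 of 27 NBL and 4 of 40 OligNBL cells, and its difference of -3.86 was -2.22 without cells CRBT66 to CRBT75.

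Genes of the cell cycle were few in the table. None of the 8 S phase genes was higher and 2 were lower (25%), against 12.1% of all genes. Both had blocks apart, as 4.77% of all genes had in the lower direction. They were Pola1, a subunit of the primase complex, at -2.09, and Rrm2, the ribonucleotide reductase subunit that supplies nucleotides, at -2.0. Without the NBL cells CRBT66 to CRBT75 Pola1 differed by -1.13, and without cells CRBT57 to CRBT65 Rrm2 differed by -0.84. With a pseudocount of 10 they differed by -1.15 and -0.90, and in cells with at least 1000 genes above 0 by -1.92 and -1.98. Pola1 was also at -1.67 without the OligNBL cells CRBT101 to CRBT113 and at -1.61 without the NBL cells that had TdTomato. Of 4 G2 and M phase genes, 2 were lower (50%), Top2a and Cbx5, both with blocks apart. Top2a, the topoisomerase of dividing cells, was high in no OligNBL cell, where its highest level was 2.13, and in 2 NBL cells, and its difference of -3.95 was -1.15 without cells CRBT66 to CRBT75. Cbx5, the heterochromatin protein HP1 alpha, ran from 0 through 0 to 3.22 in OligNBL and from 1.69 through 6.00 to 13.66 in NBL. Its levels of 0.36 ± 0.78 and 6.78 ± 2.73 differed by -6.42, and it was present in 25 of 27 NBL cells and in 0 of 40 OligNBL cells. NB cells had 4.74, OL 0.16 and O 0.81.

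Mature oligodendrocyte genes were at or near 0 in both populations. The summed level of 8 markers (Mbp, Mog, Mag, Mobp, Cnp, Cldn11, Mal and Trf) had a median of 0.11 in OligNBL cells, with a range of 0 to 8.30, and of 0 in NBL cells, with a range of 0 to 8.84, while OL cells had a median of 76.1 and none was below 21.1. None of the 8 was high in any OligNBL or NBL cell. Mog and Mal were at 0 in every OligNBL cell, and Cldn11 and Mal in every NBL cell. Mbp, the myelin basic protein, had levels of 0.04 and 0.13 against 12.47 in OL. Of the wider mature oligodendrocyte list, 10 of 28 measured genes were tested, with 1 higher and 1 lower (10% each, against 14.3% and 12.1% of all genes). These were Stmn4, a neuronal stathmin, and Trim59, a ubiquitin ligase, neither of them a myelin gene. Trim59 differed by -2.82, but by -1.43 with a pseudocount of 10, by -1.95 in cells with at least 1000 genes above 0, by -1.03 without the NBL cells CRBT57 to CRBT65 and by -4.29 without CRBT76 to CRBT84. None of the defining markers fixed for astrocytes, microglia, mural and ependymal cells was among the measured genes. Such cells could not be looked for by those markers. Of the wider lists, 6 astrocyte and neural stem cell genes and 3 microglia and macrophage genes were tested, and none differed by 2. Fabp7, a fatty acid binding protein of radial glia, was at 1.95 ± 2.83 in OligNBL and 0.60 ± 1.40 in NBL, and present in 9 of 40 and 3 of 27 cells. Itgam, the CD11b integrin of microglia, was at 2.47 ± 4.00 and 1.96 ± 3.08, present in 10 of 40 and 4 of 27 cells and high in 2 and 1. Cspg4 is also carried by pericytes and stands in the mural list, whose other tested gene, the collagen Col1a1, was at 0.53 and 0.62. Pecam1, an endothelial adhesion protein and the only measured gene of the endothelial markers, was at 8.11 ± 3.40 in OligNBL and 8.59 ± 1.79 in NBL, a difference of -0.48. It was above 0 in every OligNBL, NBL and OL cell, and high in 16 of 40, 7 of 27 and 7 of 22. Pecam1 thus set none of these populations apart. The part of such cells in the results was not tested.

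Over all genes, 418 were higher in OligNBL by at least 2 and 352 lower, and the median difference was 0.15. With a pseudocount of 10 in place of 1 the split was 5.01% higher to 6.76% lower. Blocks were apart for 254 of the higher genes (8.71% of those tested) and for 4.77% in the lower direction. The 254 higher genes were high in a median of 3 of 40 OligNBL cells and in at most 19, so each sat in a minority of the cells at that level. The lower genes with blocks apart were high in a median of 5 of 27 NBL cells, and 7 of them in 14 or more.

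**Figure D3:**
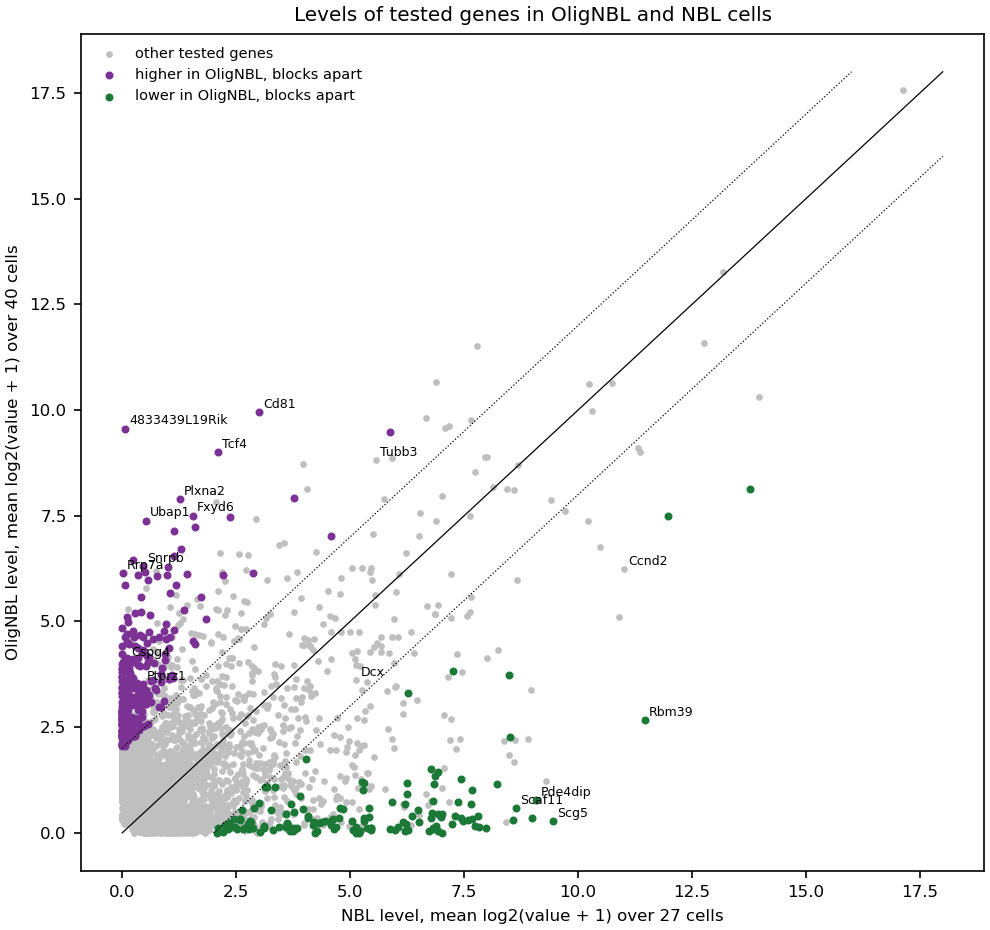
Level of each of 2915 tested genes in NBL (x axis) and OligNBL (y axis), mean log2(value + 1) over 27 and 40 cells; purple and green points differ by at least 2 with number blocks apart, the solid line is equality and dotted lines mark a difference of 2. The 254 purple genes lie mostly near 0 in NBL, and the green genes mostly near 0 in OligNBL.

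The gene with the largest difference was 4833439L19Rik (chr13:54551218-54565435, minus strand), a protein-coding gene that overlaps Simc1 on the other strand. It ran from 1.37 through 8.72 to 20.19 in OligNBL and from 0 through 0 to 1.69 in NBL, where it was above 0 in cell CRBT73 alone. It was high in 18 of 40 and 0 of 27 cells. The levels were 9.56 ± 5.52 and 0.06 ± 0.33, a difference of 9.50 that was no smaller than 8.64 without any number block. NB, OL and O had 0.64, 3.77 and 1.00. Only the lowest OligNBL levels reached into the NBL range.

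Cd81, a tetraspanin membrane protein (chr7:143052739-143067934, plus strand), ran from 3.96 through 8.42 to 20.19 in OligNBL and from 0 through 2.26 to 11.63 in NBL. It was present in all 40 OligNBL cells and in 10 of 27 NBL cells. Its levels of 9.95 ± 4.48 and 3.00 ± 3.18 differed by 6.95. OL and O cells, sorted for the Olig2 reporter, had 12.06 and 8.98, and NB cells 4.59. Without the 11 NBL cells that had TdTomato, the difference was 8.05.

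Tcf4, a basic helix-loop-helix factor that pairs with lineage factors in neurons and oligodendrocytes, ran from 0 through 9.19 to 20.19 in OligNBL and from 0 through 1.57 to 7.11 in NBL. The levels of 9.01 ± 5.03 and 2.10 ± 2.05 differed by 6.91. The OligNBL cells CRBT10 to CRBT16 had a mean of 2.96, near the NBL blocks, whereas the other blocks had 10.80, 9.44 and 8.82. OL and O cells had 1.69 and 2.05. Plxna2, a receptor for semaphorins that steer migrating cells and axons (chr1:194618218-194816869, plus strand), ran from 1.54 through 6.59 to 18.99 in OligNBL and from 0 through 0 to 7.73 in NBL. It was present in 38 of 40 and 5 of 27 cells. Its levels of 7.90 ± 3.88 and 1.26 ± 2.04 differed by 6.64, with block means of 7.12 to 8.52 in OligNBL and 0.80 to 1.69 in NBL. It stood at 0.66 to 1.54 in the other 3 populations.

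The other leading higher genes were spread over basic cell functions. Ubap1, a part of the endosomal sorting machinery, differed by 6.87, but its OligNBL block means of 1.23 and 2.05 in cells CRBT10 to CRBT113 lay far below the 10.59 and 11.57 of the later cells. Nme1, a nucleoside diphosphate kinase, differed by 6.22, Rrp7a, a ribosome assembly factor, by 6.13, Dnajc7, a co-chaperone, by 6.01, and Fxyd6, a regulator of the sodium pump, by 5.96. Dnajc7 overlaps Cnp, a myelin gene, on the other strand, but the levels of the pair did not go together: OligNBL had 7.14 for Dnajc7 and 0.55 for Cnp, whereas OL had 0.36 and 10.37. Snrpb, a core spliceosome protein, differed by 5.85 and Insr, the insulin receptor, by 5.80. Gm10275, a transcribed processed pseudogene, differed by 5.74. Its correlation with Rpl12 over the 155 cells was 0.97, so which of the 2 genes the reads came from is uncertain. The smallest difference of these 12 genes without any number block was 4.07, for Insr without cells CRBT114 to CRBT130.

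**Figure D4:**
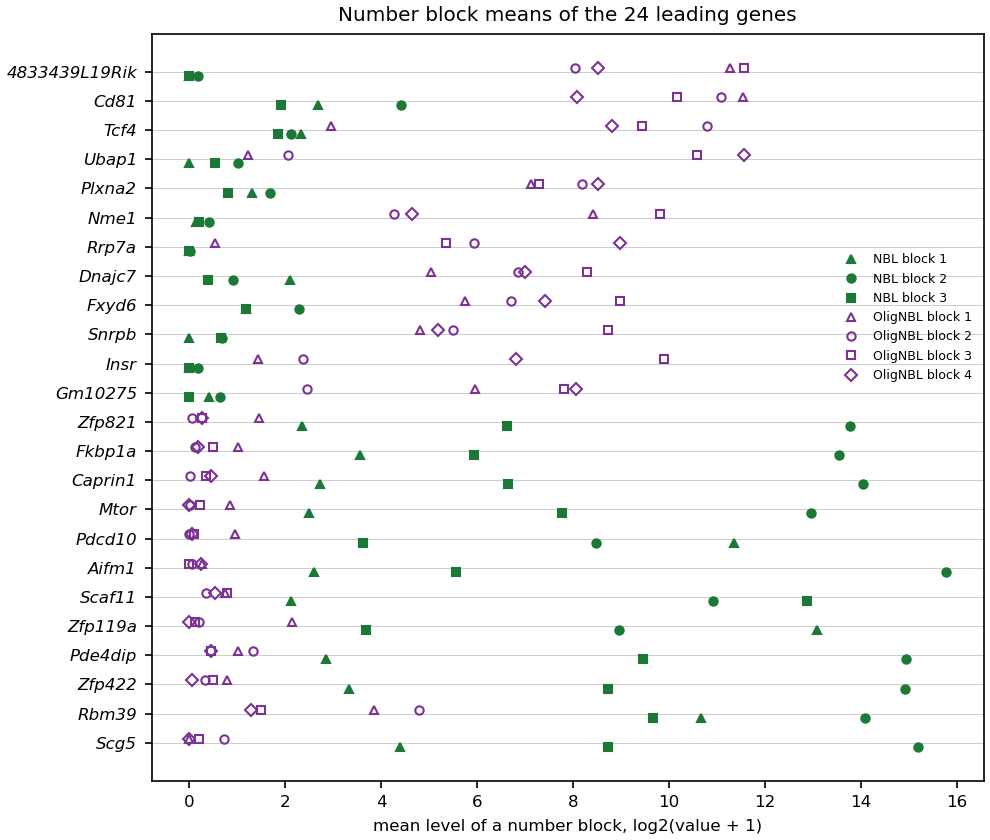
Mean level, log2(value + 1), of each number block for the 12 genes each way with the largest differences among those with blocks apart and above 0 in at least 50% of the cells of the higher population; filled green symbols are the 3 NBL blocks and open purple symbols the 4 OligNBL blocks, with no error bars. For the 12 upper genes the purple symbols lie to the right, and for the lower 12 the NBL block 2, cells CRBT66 to CRBT75, lies farthest right for 9 genes.

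Of the 12 leading lower genes, 11 had OligNBL means from 0.11 to 0.77, and Rbm39 had 2.66. Scg5, a secretory granule chaperone (chr2:113776362-113829121, minus strand), ran from 0 through 0 to 3.37 in OligNBL and from 0 through 10.74 to 18.99 in NBL. In 14 of 27 NBL cells it was high. Its levels of 0.28 ± 0.75 and 9.44 ± 5.98 differed by -9.16, and by -6.28 without the NBL cells CRBT66 to CRBT75. NB cells had 0.16, so Scg5 was low in the neuroblasts of uninjected mice too. Rbm39, a splicing factor, ran from 0 through 1.33 to 16.06 in OligNBL and from 1.45 through 13.12 to 20.19 in NBL. Its difference of -8.81 was the steadiest of these, at -7.51 without cells CRBT66 to CRBT75. It was present in 24 of 27 NBL and 12 of 40 OligNBL cells.

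The NBL blocks shared the lower genes with blocks apart unevenly. The highest block mean lay in cells CRBT57 to CRBT65 for 61 of these genes, in cells CRBT66 to CRBT75 for 57 and in cells CRBT76 to CRBT84 for 21. By contrast, 33 were high in all or all but 1 of the 9 cells CRBT66 to CRBT75, against 2 in cells CRBT57 to CRBT65 and 3 in cells CRBT76 to CRBT84. Over all genes, 53 were high in every one of the cells CRBT66 to CRBT75, against 12 and 8 in the same order. The uneven split was thus not particular to the lower genes. No higher gene was high in all or all but 1 cells of any OligNBL block. Over all genes, 13 were high in every one of the cells CRBT10 to CRBT16, and 1 in each other OligNBL block. Aifm1, a mitochondrial protein that can trigger cell death, had NBL block means of 2.60, 15.77 and 5.55, and its difference of -7.86 was -3.96 without cells CRBT66 to CRBT75. The differences of Zfp422, Pde4dip, Mtor, Caprin1, Fkbp1a and Zfp821 also moved by over 1.5 times without cells CRBT66 to CRBT75, to values from -5.69 to -4.17. In NB cells Aifm1, Caprin1 and Fkbp1a had levels of 0.0002, 0.63 and 2.41. They had 0.11, 0.40 and 0.34 in OligNBL and 7.98, 7.80 and 7.67 in NBL. Mtor is the growth kinase that senses nutrients, Caprin1 an RNA granule protein, Fkbp1a a prolyl isomerase that binds rapamycin, Pde4dip a Golgi and centrosome scaffold, and Zfp422 and Zfp821 zinc finger proteins. Pdcd10 and Zfp119a were highest in cells CRBT57 to CRBT65, with block means of 11.36 and 13.09, and Scaf11, a splicing-associated protein, in cells CRBT76 to CRBT84. Of the named genes that differed by at least 2, 65 moved by over 1.5 times without some block, and 30 of them without NBL cells CRBT66 to CRBT75. Whether that block reflects the cells or their handling was not tested.

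OligNBL cells varied by block as well. The median range of block means was 2.63 over the genes of OligNBL and 1.77 over those of NBL. A range widens with more blocks and with fewer cells in a block. OligNBL had 4 blocks, 1 of them of 4 cells, and NBL 3 blocks of 9 cells, so the 2 medians cannot be compared. The widest in OligNBL were D430042O09Rik, Smarcc2, Tmsb4x, Nap1l1, Sorbs2, Ubap1, Ube2d2a and Gstm5. Of these, 6 were highest in the cells CRBT10 to CRBT16, the block with the fewest cells. Nap1l1, a nucleosome assembly chaperone, had a mean of 11.18 there and 0.41 to 0.54 in the other blocks, and Smarcc2, a subunit of the BAF chromatin remodeller, 12.06 against 0.33 to 3.25. Tmsb4x, the actin-binding thymosin beta 4, and Ubap1 were highest in cells from CRBT114 on, with Tmsb4x at 0.41 and 1.26 in the earlier and 11.22 and 8.02 in the later blocks. The widest in NBL were Trim45, Crip2, Zfp30, Aifm1, Srsf6, Hdac2, Nup214 and Snx17, all highest in cells CRBT66 to CRBT75.

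Among the groups of basic cell function, glycolysis had the largest share of higher genes. Of its 7 tested members, 4 were higher (57.1%, against 14.3% of all genes), all with blocks apart. There were 0 lower, and the median difference was 2.18. Hk1, the hexokinase that traps glucose in the cell, ran from 0 through 3.70 to 16.86 in OligNBL and from 0 through 0 to 1.69 in NBL, a difference of 4.05. Its OligNBL block means were 1.70, 0.63, 6.12 and 6.49 in the order of the blocks, and the highest NBL block mean was 0.19. Eno1, an enolase, differed by 3.96, and Slc2a3, the neuronal glucose transporter, by 3.68. Pfkp, a phosphofructokinase, differed by 2.18, and by 1.41 without cells CRBT101 to CRBT113. Slc2a3 and Pfkp differed by 1.92 and 0.81 with a pseudocount of 10. Hk1 stood at 0.03 to 0.13 in NB, OL and O.

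Ribosomal protein genes leaned the same way, with 11 of 45 higher (24.4%), 2 lower (4.44%) and a median of 1.42. Rpl12 differed by 5.66, Rps24 by 5.16, Rpl13a by 4.29 and Rpl3 by 3.98. Rpl13a and Rpl3 were 2.79 and 2.45 without the cells CRBT114 to CRBT130. These genes have many processed copies in the genome, so the assignment of their reads is uncertain. Nuclear genes of the respiratory chain gave 8 of 46 higher (17.4%) and 4 lower (8.70%), near the 14.3% and 12.1% of all genes. Atp5f1 and Atp5o, subunits of ATP synthase, differed by 4.92 and 4.15, and Ndufv2, a subunit of complex I, by -6.72, which was -4.07 without NBL cells CRBT66 to CRBT75.

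The tubulin, actin and motor list had 17 of 58 members higher (29.3%) and 4 lower (6.90%), but the blocks were apart for 4 of the 17, and its median was 0.06. Mapre3, a protein of growing microtubule ends, was the largest with blocks apart at 5.32. In the other direction Map7d1, a microtubule-associated protein, differed by -6.63, and by -4.40 without cells CRBT66 to CRBT75. Of 24 migration and guidance genes, 6 were higher (25%, against 14.3% of all genes) and 1 lower (4.17%, against 12.1%), with a median of 0.84. Beside Plxna2 these included Eva1c, a receptor for Slit guidance cues, at 5.85 ± 2.90 against 1.19 ± 1.20, and Prokr2, the prokineticin receptor that neuroblasts need to reach the olfactory bulb. Eva1c ran from 0.51 through 5.40 to 13.54 in OligNBL and from 0 through 1.07 to 4.09 in NBL, a difference of 4.67 with blocks apart. Prokr2 differed by 3.24, by 2.06 without cells CRBT131 to CRBT142 and by 1.69 with a pseudocount of 10. The lower member was Cdh2, the adhesion protein N-cadherin, at -6.97, which was -4.33 without the NBL cells CRBT57 to CRBT65.

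Vesicle trafficking was the largest list that leaned to NBL, with 15 of 51 members lower (29.4%), 4 higher (7.84%) and a median of -0.33. The blocks were apart for 3 of the 15, or 3 of 51 members tested where 4.77% of all genes were, and these were Scg5, Rab14, a Golgi and endosome GTPase, at -6.89, and Sec22b, a membrane fusion protein of the secretory route, at -6.62. Vamp2, the synaptic vesicle fusion protein, differed by -6.42 with overlapping blocks. Without cells CRBT66 to CRBT75, Rab14 and Vamp2 were at -4.34 and -3.57.

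**Figure D5:**
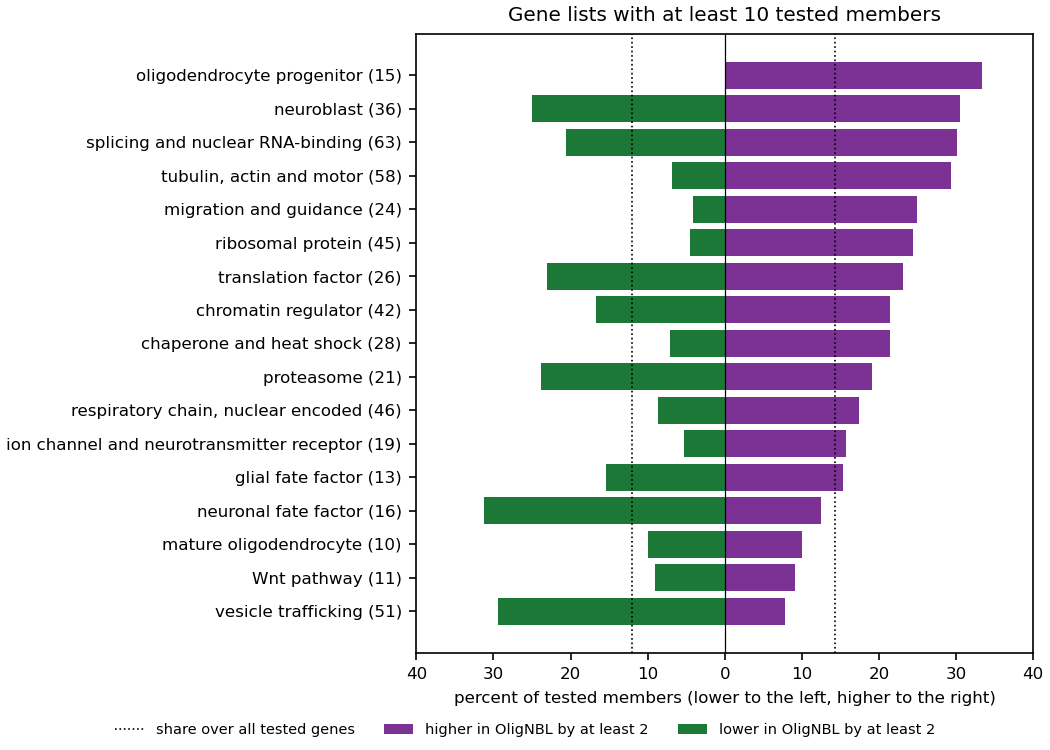
Percent of the tested members of each gene list with 10 or more tested members (number in brackets) that were higher (purple, right) or lower (green, left) in OligNBL by at least 2; dotted lines mark the shares over all 2915 tested genes, 14.3% and 12.1%. The oligodendrocyte progenitor list, which holds the given markers Cspg4 and Ptprz1, has 33.3% higher and 0 lower. The vesicle trafficking list has 7.84% higher and 29.4% lower.

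Splicing, translation and chromatin genes were shifted both ways. Of 63 splicing genes 19 were higher (30.2%) and 13 lower (20.6%), where all genes gave 14.3% and 12.1%. Among them were Matr3, a nuclear matrix RNA-binding protein, at 5.63 and Srsf6, an SR protein, at -7.19, or -3.27 without cells CRBT66 to CRBT75. Of 26 translation genes 6 were higher and 6 lower (23.1% each). Eif1, which helps the ribosome to choose its start codon, was high in all 27 NBL cells, from 10.60 through 13.36 to 20.19, and in 15 of 40 OligNBL cells, from 2.91 through 7.09 to 18.99. The levels of 8.13 ± 4.14 and 13.77 ± 1.98 differed by -5.64, with blocks apart, and NB cells had 11.44. Of 42 chromatin genes 9 were higher (21.4%) and 7 lower (16.7%). Smarce1, a BAF subunit, differed by -8.07 and Brd2, a reader of acetylated histones, by -6.48, or -4.14 without the NBL cells CRBT57 to CRBT65. Both were also found in NB, at 7.32 and 6.04. Hdac2, a histone deacetylase, differed by -5.96, or -2.32 without cells CRBT66 to CRBT75.

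The fate factors were divided in the same manner. Of 16 neuronal fate factors 2 were higher (12.5%), Meis2 and Sox11, and 5 lower (31.25%). The lower ones included Scrt1, a zinc finger repressor of neurons, at -8.17 with overlapping blocks, and Zeb1, a repressor of neuronal maturation, at -6.07, or -3.29 without cells CRBT66 to CRBT75. Foxp2 differed by -3.88, and by -1.0 without the NBL cells CRBT76 to CRBT84. Of 13 glial fate factors 2 were higher and 2 lower (15.4% each), near the 14.3% and 12.1% of all genes. Nfix, a nuclear factor of neural stem cells and glia, was at 7.82 ± 4.63 against 2.05 ± 2.47, a difference of 5.77 with overlapping blocks. Tcf7l2, a Wnt effector that is strong in newly formed oligodendrocytes, was lower in OligNBL with blocks apart. It ran from 0.94 through 2.93 to 10.05 against 3.19 through 6.19 to 11.27, and was present in 10 of 40 OligNBL and 26 of 27 NBL cells. Its levels of 3.30 ± 2.05 and 6.26 ± 1.89 differed by -2.96, and NB, OL and O had 4.20, 3.72 and 4.62. Zeb2, a factor of oligodendrocyte maturation, differed by -2.21 with overlapping blocks, by -1.11 with a pseudocount of 10, by -1.83 with blocks weighted equally, by -1.55 without the NBL cells CRBT76 to CRBT84 and by -1.86 without the OligNBL cells CRBT101 to CRBT113.

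Signalling and stress lists were small. Notch1, the Notch receptor, differed by -4.82, or -1.91 without cells CRBT66 to CRBT75, and Mfng, a glycosyltransferase that tunes Notch, by 2.58 with blocks apart, or 1.96 without cells CRBT101 to CRBT113. Skil, an inhibitor of TGF-beta signalling, ran from 0 through 0 to 3.30 in OligNBL and from 0 through 4.38 to 9.86 in NBL, a difference of -4.08 with blocks apart. Ifit1, an antiviral gene that interferon induces, was higher with blocks apart by 3.04, was high in 1 OligNBL cell, and differed by 1.90 without cells CRBT101 to CRBT113. Of 19 ion channel and receptor genes 3 were higher (15.8%), near the 14.3% of all genes, all with blocks apart. These were Kcnc2, a potassium channel of fast-spiking interneurons, at 3.91, Scn3a, a sodium channel of the developing brain, at 3.42, and Clcn6, a chloride transporter, at 3.37. Without cells CRBT131 to CRBT142 Kcnc2 was at 2.30, and without cells CRBT101 to CRBT113 Scn3a was at 2.0. Gria2, the AMPA receptor subunit, differed by -3.03, or -1.79 without the NBL cells CRBT57 to CRBT65. With a pseudocount of 10 the differences of Mfng, Ifit1, Clcn6 and Scn3a were 1.15, 1.50, 1.57 and 1.89, and those of Skil and Gria2 -1.79 and -1.62.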

How the data were processed

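SMART-Seq2 libraries of 155 mouse cells were used as 1 table of 3422 genes. The submitters' processing notes name kallisto, limma and the build GRCm38, without versions. Although the deposited table is named for estimated counts, its values were treated as a normalized signal, because the 8 highest were the same in each cell to a relative tolerance of 1e-06 and column totals differed by 0.101%. The normalization method and the selection of genes were not given in the sources used here. No count test had been planned, so the plan was kept.

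Levels, differences and counts were computed in Python 3.11.15 with pandas 2.3.3, numpy 2.4.6 and scipy 1.17.1. Genes above 0 in at least 20% of the cells of either population were tested, 2915 in all, where tested means compared in size. A difference of at least 2 was counted, and presence meant the 500 highest genes of a cell. Shares have exact Clopper-Pearson 95% intervals. Number blocks began where the cell number jumped by more than 10, and runs of more than 13 cells were divided into near-equal parts of about 12. Named genes were the reporters, the markers, the 12 genes each way with the largest difference among those with blocks apart and above 0 in at least 50% of the higher population, up to 4 members per list, and the 8 with the widest block means in each population; of 173 named genes, 170 were placed on GRCm38 by GENCODE. Genes most like a marker were taken by Pearson correlation. The members, the 35 lists and the rules were chosen with earlier results of these data known. The script was tested on simulated data. Alternatives were the pseudocount, the filter, block weights and size, thresholds, ranks, cells with few genes, and cells or blocks left out. A few genes are not reported here, and the summed level of mature oligodendrocyte markers leaves out 1 of them.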

Additional observations from a re-analysis of the deposited data

How the results depend on the processing

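As shares of the genes tested, with a pseudocount of 10 the genes higher, lower and higher with blocks apart were 5.01%, 6.76% and 3.26%, and 88 of the last were among the 254. A difference of at least 1 gave 30.2% higher, 23.8% lower and 7.34% lower with blocks apart, and one of at least 3 gave 6.45% higher, 6.90% lower and 4.46% higher with blocks apart. With values above 0 in at least 50% of cells required, the shares were 23.4%, 18.9%, and 14.6% and 7.79% with blocks apart, of 1669 genes in place of 2915. Blocks of at most 7 cells gave 4.43% higher and 2.64% lower with blocks apart. Those lower with blocks apart were 7.44% without the OligNBL cells numbered below 57 and 7.85% without the NBL cells CRBT57 to CRBT65, in both cases with fewer blocks to be apart. Tubb3 with Cspg4 or Ptprz1 was present in 27.5% of OligNBL cells by the 300 highest genes, 95% by a value above 0 and 10% by a high level, against 62.5%. Cspg4 was present in 90% by a value above 0 and 15% by a high level, against 30%. The shares by a value above 0 also count values below 1. The median of the G2 and M phase list, -1.87, was 0.057 without a filter and 0.24 without the OligNBL cells CRBT131 to CRBT142, and that of the integrated stress and apoptosis list, -3.10, was 0.022 without a filter, with more genes entering; the cause of the change without cells CRBT131 to CRBT142 was not tested. With a pseudocount of 10, 28 of the named differences of at least 2 came under 2, and without the OligNBL cells CRBT101 to CRBT113 13 did. None of the named differences of at least 2 changed sign under the settings run on them, ranks within a cell included. The high level, the filter at a value of 1, the blocks left out and the TdTomato cells left out were chosen after seeing the data. No paired analysis was possible because the populations share no mouse or replicate number. Depth could not be read, so a gene at 0 may be present below what a cell's library could show.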
